A study of Mus musculus with 2 samples.

Results

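The Kruppel-like factors (Klf genes) are zinc-finger transcription factors that bind GC-rich and CACCC-type DNA. Here 9 of them were followed in mouse ear epidermis: Klf2, Klf3, Klf4, Klf5, Klf6, Klf7, Klf9, Klf10 and Klf13. They were found by gene name among the 26242 named genes of the deposited expression table, with 1 row for each member and no row merged with another gene. Expression was given as FPKM, a fragment count scaled to transcript length and library size, which divides by length and so allows levels of different genes to be set side by side.

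RNA was taken from epidermal cell layers of C57BL/6 ears that had received 5% imiquimod cream for 6 days, a treatment that acts through Toll-like receptor 7 and produces psoriasis-like inflammation. The tested mice carried a K14 conditional knockout of Il9ra, the receptor gene for interleukin-9 (Il9r in the expression table), and the controls were wild type. K14 is a keratin of basal keratinocytes, so the label places the deletion in keratinocytes; the alleles, whether the controls carried any part of the deletion system, the age of the mice and how many mice gave each library are not stated in the labels. Both groups received imiquimod, and no untreated library was analysed. There was 1 library per genotype, so the variation between animals is unknown and no test was made. Differences are described by size on the log2(FPKM + 1) scale, as knockout minus wild type, among the 11886 genes that reached 1 FPKM in 1 or both libraries.

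Steps among the low FPKM values put the knockout library at about 31200000 fragments and the wild-type library at about 24000000. Il9r itself was listed at 0.011 FPKM in knockout epidermis, against 0.039 FPKM in wild-type epidermis, too low to check the genotype labels. All 10 keratinocyte markers were abundant in both libraries and ranged from 55.6 to 14704 FPKM in the knockout library and from 56.4 to 14182 FPKM in the wild-type library.

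In skin, members of this family act at different stages of keratinocyte life. Klf4 is needed in the upper layers for formation of the permeability barrier, Klf5 is expressed mainly in the proliferating basal layer, and Klf9 links the circadian clock and glucocorticoids to keratinocyte growth. Klf3 is a repressor that recruits the corepressor CtBP, while Klf9, Klf10 and Klf13 recruit Sin3 and histone deacetylases. Klf2, Klf4, Klf6 and Klf10 can be induced rapidly by growth factors, cytokines or stress, and Klf2 is best known in endothelial cells and lymphocytes, where it supports quiescence. Klf7 is studied mainly in neurons.

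Klf2 was the member that differed most and Klf4 the most abundant, and the sequences before their RefSeq transcription starts are shown because the family binds GC-rich stretches of this kind. Each covers 250 bases on GRCm38.p6 from RefSeq, 5′ to 3′ on the strand of the gene. The Klf2 stretch is chr8:72318812-72319061 on the plus strand and the Klf4 stretch is chr4:55532476-55532725 on the minus strand. Capitals mark GGGCGG boxes, CACCC boxes and MEF2-type sites, each read on both strands.
Klf2: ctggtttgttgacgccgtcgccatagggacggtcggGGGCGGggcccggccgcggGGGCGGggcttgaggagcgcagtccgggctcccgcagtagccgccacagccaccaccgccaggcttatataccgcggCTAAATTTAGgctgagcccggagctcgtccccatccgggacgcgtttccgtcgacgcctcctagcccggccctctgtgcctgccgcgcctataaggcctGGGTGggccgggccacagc
Klf4: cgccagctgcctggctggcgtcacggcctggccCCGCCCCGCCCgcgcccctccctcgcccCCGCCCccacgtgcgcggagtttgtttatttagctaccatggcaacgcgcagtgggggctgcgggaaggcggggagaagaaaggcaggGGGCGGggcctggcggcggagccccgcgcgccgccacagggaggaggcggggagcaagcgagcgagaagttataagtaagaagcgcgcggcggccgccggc

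The Klf2 stretch held 2 GGGCGG boxes, 1 CACCC box and 1 MEF2-type site, CTAAATTTAG, which began 118 bases upstream of RefSeq's start. GENCODE M21 places the start of Klf2 further upstream, so that the last 29 bases of the stretch lie within the gene and the MEF2-type site began 89 bases before that start; the Klf4 stretch lies wholly outside its GENCODE gene. MEF2 proteins are the known link between the kinase ERK5 and Klf2 transcription. The Klf4 stretch held 4 GGGCGG boxes, some of which overlap, and no CACCC box or MEF2-type site. Promoter sequence was matched for 7 of the 9 members (Klf2, Klf3, Klf4, Klf6, Klf7, Klf9 and Klf13). A GGGCGG box was present in 6 of these, all but Klf9, and in 32.9% of 27025 promoters of the same length, or 61.1% of the 8002 promoters whose gene had at least 1 FPKM. A CACCC box was present in 5 of the 7 and in 51.3% of all promoters; in Klf3 and Klf13 it overlapped a GGGCGG box. A MEF2-type site was found in the Klf2 stretch alone among the 7, and in 3.01% of all promoters. Neither a CArG box, the site of serum response factor, nor TGACTCA, the AP-1 site, occurred in any of the 7, against 1.40% and 4.43% of all promoters. These are matches of letters and not measured binding. By GENCODE M21 the whole Klf7 stretch lies within its gene, as do 133 bases of the Klf3 stretch and 7 of the Klf6 stretch. Boxes counted for Klf7, and in part for Klf3, are therefore upstream of RefSeq's start only.

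All 9 members were above 1 FPKM in both libraries, and their levels ran from 2.34 to 371.7 FPKM in knockout epidermis and from 2.85 to 471.2 FPKM in wild-type epidermis. Klf4 was the most abundant, at 371.7 FPKM in knockout epidermis, against 471.2 FPKM in wild-type epidermis. It was the gene ranked 235 by level in the knockout library and 199 in the wild-type library, among all 26242. Klf3 followed at 134.9 FPKM in knockout epidermis, against 145.5 FPKM in wild-type epidermis, and Klf5 at 117.0 FPKM in knockout epidermis, against 112.9 FPKM in wild-type epidermis. Klf6, a stress-responsive member, and Klf10, first described as a gene induced early by TGF-beta, came next. The order of the 5 most abundant members, Klf4, Klf3, Klf5, Klf6 and Klf10, was the same in both libraries. Below them Klf2 and Klf13 changed places: Klf13 stood above Klf2 in the knockout library, and Klf2 above Klf13 in the wild-type library. Klf9 and Klf7 were the lowest 2 members in both.

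**Figure D1:**
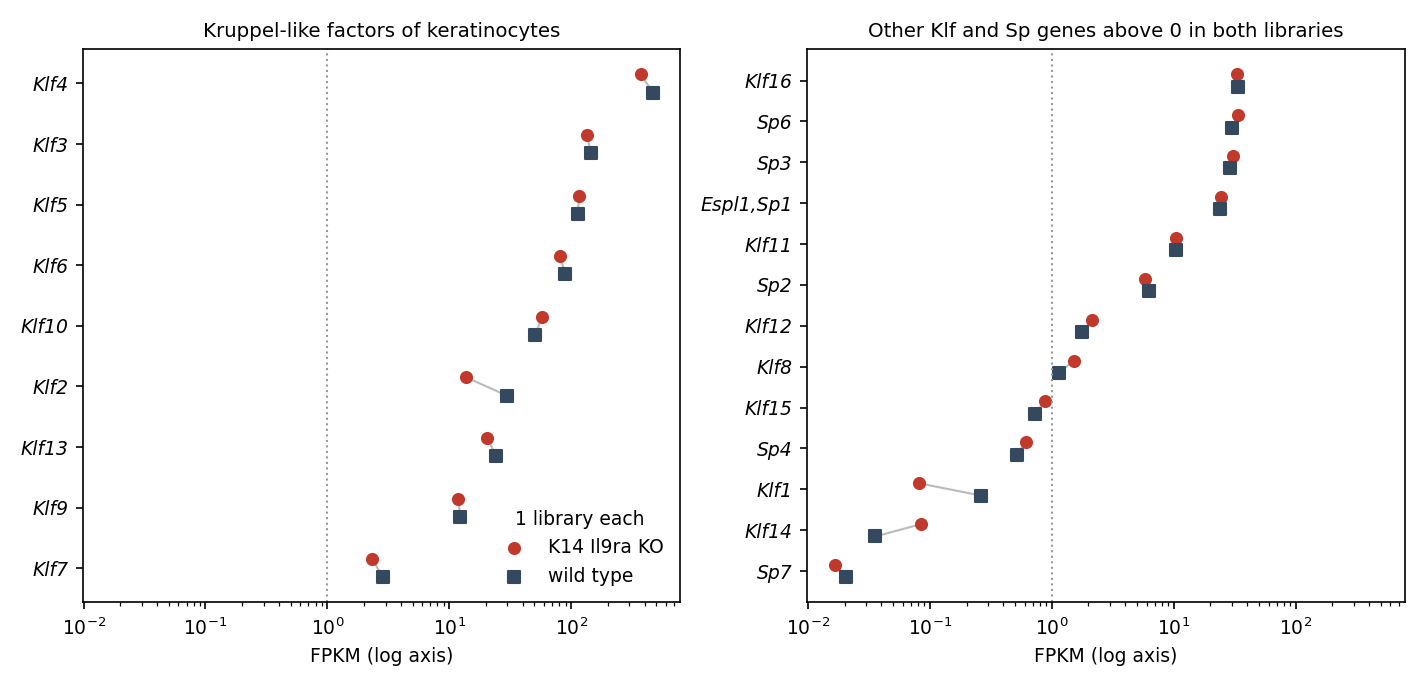
Level of each Klf member (left) and of the other Klf and Sp genes above 0 in both libraries (right), in FPKM on a log axis; circles are the K14 Il9ra knockout library, squares the wild-type library, and the dotted line is 1 FPKM. The circle and square of most members nearly coincide, while for Klf2 they stand apart, at 13.7 FPKM in knockout epidermis, against 29.6 FPKM in wild-type epidermis.

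Summed over the 9 members, Klf transcripts came to 811.5 FPKM in knockout epidermis, against 938.2 FPKM in wild-type epidermis, a ratio of 0.865. Klf4 made up 45.8% of that sum in the knockout library and 50.2% in the wild-type library. Its difference of -99.5 FPKM accounted for 78.5% of the difference of the sum, which was -126.7 FPKM. Without Klf4 the sums were 439.8 FPKM in knockout epidermis, against 467.0 FPKM in wild-type epidermis, a ratio of 0.942. The ratio of Klf4 to Klf5, a pair with opposed places in the epidermis, was 3.18 in the knockout library and 4.18 in the wild-type library. The shares of Klf4 in each library's sum and the ratios of Klf4 to Klf5 are taken within a library and do not depend on how the libraries were scaled to each other; the differences and the ratios between libraries do.

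**Figure D2:**
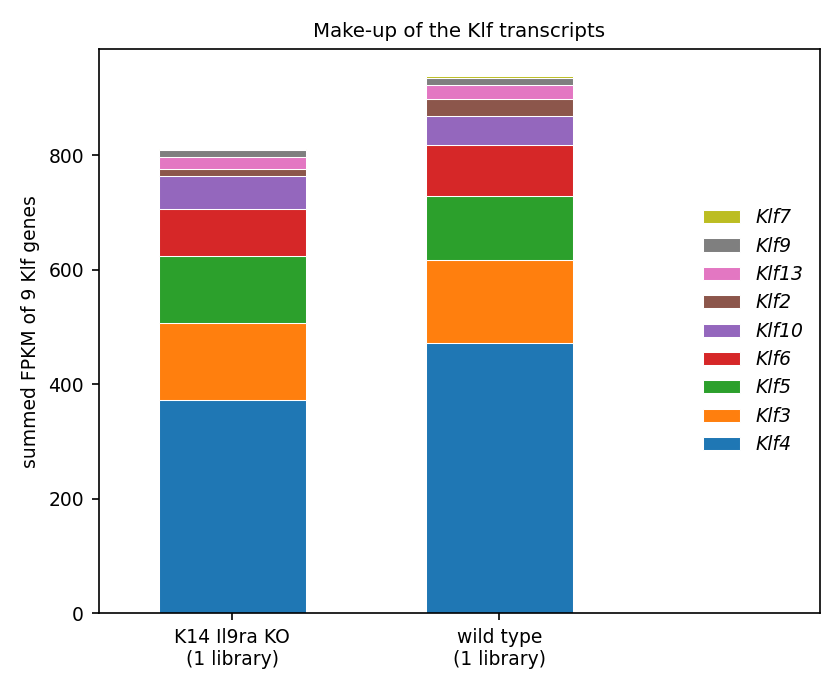
Summed FPKM of the 9 Klf members in the K14 Il9ra knockout library (left bar) and the wild-type library (right bar), stacked by gene. The knockout bar reaches 811.5 FPKM and the wild-type bar 938.2 FPKM, and most of the gap lies in the Klf4 segment at the base.

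Of the 9 members, 7 were lower and 2 were higher in the knockout library; of all genes, 55.6% were lower and 44.4% higher by any amount. The median log2 difference of the members was -0.12, against -0.02 for all genes. Of the members 1, Klf2, was at least 2-fold lower, where 0.345% of all genes were (a call lost with a pseudocount of 5 FPKM, at -0.89), and 0 were at least 2-fold higher, where 0.412% were. A smaller limit was set at 20% lower or 25% higher, a log2 difference of 0.32 either way. Of the members 2, Klf2 and Klf4, were at least 20% lower, where 5.9% of all genes were; Klf4 no longer passed when the libraries were scaled to the same upper quartile or centred on the median gene. At least 25% higher were 0 members, where 4.59% of all genes were.

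**Figure D3:**
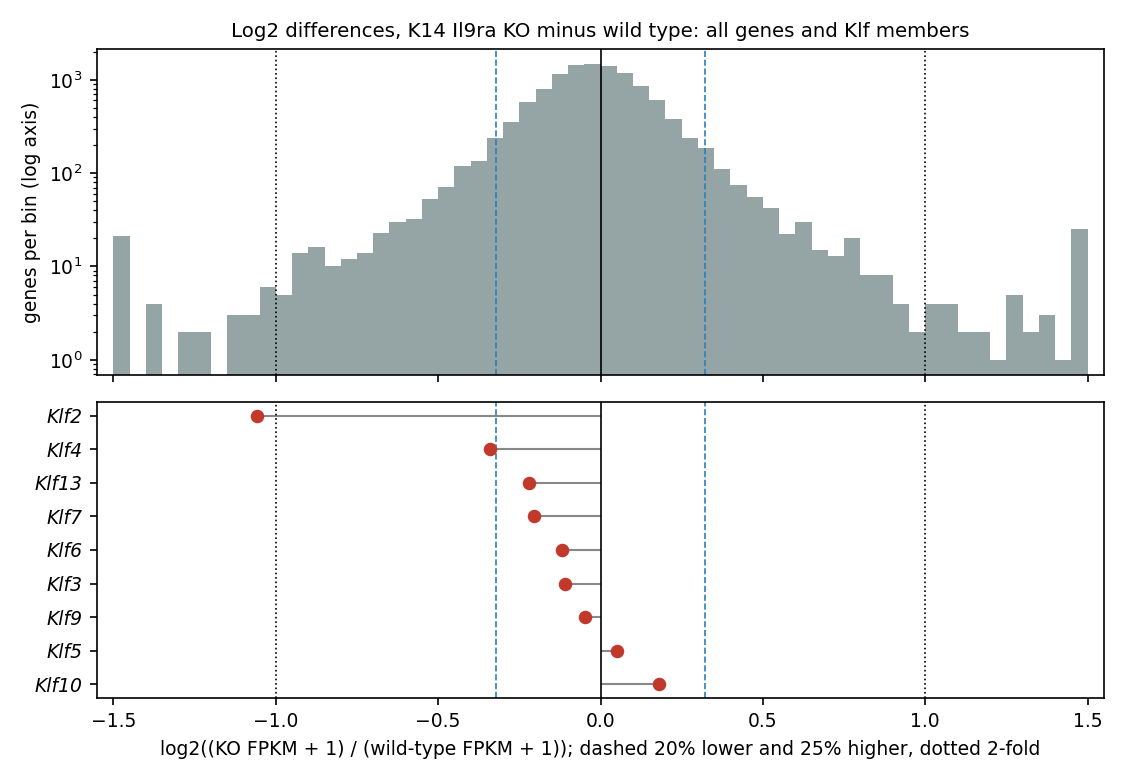
Upper panel: histogram of the log2 difference, K14 Il9ra knockout minus wild type, over 11886 genes in bins of 0.05 on a log count axis, with genes beyond the ends added to the outermost bins. Lower panel: the 9 Klf members on the same axis, with Klf2 at -1.06 past the dotted 2-fold line, Klf4 at -0.34 just past the dashed line at -0.32 and the other 7 between the dashed lines.

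Klf2 (ENSMUSG00000055148, chromosome 8, 72319033 to 72321656, plus strand of GRCm38) was at 13.7 FPKM in knockout epidermis, against 29.6 FPKM in wild-type epidermis. The knockout level was 0.463 of the wild-type level, a log2 difference of -1.06. At the annotated transcript length this corresponds to about 790 fragments in the knockout library and 1320 in the wild-type library. Its difference ranked 35 from the lowest among 11886 genes, and 18 of the 6569 genes that reached 10 FPKM had a lower one. In the authors' deposited table Klf2 had p = 0.0001 and q = 0.071, which missed the 0.05 level that 20 of 16299 rows with a test statistic (0.123%) reached; with 1 library a side, that test does not compare genotypes. In the same deposited table the q of each of the other 8 members was 0.999. The genes nearest to Klf2 over the levels of the 2 libraries were Gm19610, BC117090 and Ostf1, at distances of 0.093, 0.13 and 0.16 on the log2(FPKM + 1) scale.

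Klf2 is abundant in endothelial cells and lymphocytes, so markers of other cells were read beside it. Of 10 endothelial markers 1, Pecam1, passed 1 FPKM, in the wild-type library alone. It was at 0.79 FPKM in knockout epidermis, against 1.21 FPKM in wild-type epidermis. Cdh5, Kdr, Cldn5 and Emcn were listed at 0 in both libraries. The endothelial markers summed to 1.14 FPKM in knockout epidermis, against 1.52 FPKM in wild-type epidermis. T cell markers summed to 78.4 FPKM in knockout epidermis, against 76.2 FPKM in wild-type epidermis. Thy1 gave the largest part of both sums, at 49.4 FPKM in knockout epidermis, against 50.3 FPKM in wild-type epidermis. Of the T cell markers 5 of 8 were higher, where 44.4% of all genes were, with a median log2 difference of 0.02. The highest was Cd3g, at 11.2 FPKM in knockout epidermis, against 8.89 FPKM in wild-type epidermis. Langerhans and dendritic cell markers summed to 573.7 FPKM in knockout epidermis, against 810.8 FPKM in wild-type epidermis. Of them 8 of 9 were lower, where 55.6% of all genes were, with a median of -0.61. The row of Cd74, merged with Mir5107, gave the largest part of both sums, at 247.9 against 342.1 FPKM. In the same order, H2-Eb1, with the largest difference of this list at -2.25, was at 5.53 against 29.97 FPKM. H2-Aa was at 48.4 against 94.2 FPKM, Cd207 at 19.5 against 37.6 FPKM and Cd86 at 3.34 against 5.72 FPKM. Epcam, the 1 higher, was at 100.2 against 98.8 FPKM. All 10 hair follicle markers past the filter were lower (9 after upper quartile scaling or centring on the median gene), where 55.6% of all genes were. Of them Krt28 and Krt35 reached 1 FPKM in the wild-type library alone, so the filter could admit them only as lower. The 11 hair follicle markers found by name summed to 46.5 FPKM in knockout epidermis, against 62.5 FPKM in wild-type epidermis. Melanocyte markers past the filter were lower in 6 of 6, where 55.6% of all genes were. Tyr, 1 of the 6, reached 1 FPKM in the wild-type library alone, so the filter could admit it only as lower. All 8 melanocyte markers summed to 18.7 FPKM in knockout epidermis, against 22.8 FPKM in wild-type epidermis, and each was under 6 FPKM in both. The part of any of these cell types in the Klf2 difference was not tested. In a bulk sample, fewer cells of a type and less RNA per cell cannot be told apart. Fibroblast markers summed to 11.2 FPKM in knockout epidermis, against 11.3 FPKM in wild-type epidermis, with Col1a1 and Col1a2 under 1 FPKM in both. The macrophage and neutrophil list came to 667.3 FPKM in knockout epidermis, against 225.0 FPKM in wild-type epidermis, nearly all of it from S100a8 and S100a9, which keratinocytes also express; Ly6g was listed at 0 in both.

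The genes upstream of Klf2 had small differences. Of 8 genes of the ERK5 and MEF2 route 6 passed the filter, 4 lower and 2 higher, where 55.6% of all genes were lower and 44.4% higher. Their median log2 difference was -0.06 and none was past the smaller limit. The row of Map3k3, counted among the 4 lower, is merged with Taco1 and is no measure of Map3k3 alone. Mapk7, which encodes ERK5, was at 9.55 FPKM in knockout epidermis, against 8.70 FPKM in wild-type epidermis. Mef2a, the most abundant MEF2 gene, was at 39.6 FPKM in knockout epidermis, against 41.5 FPKM in wild-type epidermis, and Mef2d was at 27.9 FPKM in knockout epidermis, against 31.1 FPKM in wild-type epidermis. Among 9 genes linked to Klf2 in endothelium or lymphocytes, whether raised or lowered by it, 3 passed the filter. Thbd, which encodes thrombomodulin, was at 13.8 FPKM in knockout epidermis, against 10.1 FPKM in wild-type epidermis. Of the 3 it alone was past the smaller limit, with a log2 difference of 0.42, opposite in sign to that of Klf2. Of all genes 4.59% were past that limit on the higher side. Itgb7 was at 3.03 FPKM in knockout epidermis, against 3.13 FPKM in wild-type epidermis, and Edn1 at 1.60 FPKM in knockout epidermis, against 1.59 FPKM in wild-type epidermis.

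Klf4 (ENSMUSG00000003032, chromosome 4, 55527143 to 55532466, minus strand) had a log2 difference of -0.34, and 5.12% of genes had a lower one. The genes nearest to it in level were Avpi1, Gm19899 and Btg2, at distances of 0.045, 0.10 and 0.13. Of 22 late differentiation genes, the program of the layers in which Klf4 acts, 20 passed the filter, with a median of -0.06. Of these, 12 were lower and 8 higher, where 55.6% of all genes were lower. The row of Flg, among the 8 higher, is merged with LOC100503169. At least 20% lower were 4, Sprr1a, Sprr1b, Tgm1 and Sprr2a3, where 5.9% of all genes were. Casp14 alone was at least 25% higher, where 4.59% of all genes were. Sprr1a, a cornified envelope precursor, was at 692.5 FPKM in knockout epidermis, against 1025 FPKM in wild-type epidermis. Tgm1, the transglutaminase that crosslinks the envelope, was at 70.1 FPKM in knockout epidermis, against 93.1 FPKM in wild-type epidermis. Casp14, a protease of filaggrin breakdown, was at 147.8 FPKM in knockout epidermis, against 96.9 FPKM in wild-type epidermis. Krt10, Krt2 and Lor, the most abundant genes of this list, had differences of 0.05, -0.04 and -0.03. The Sprr genes are similar in sequence, so their single values are uncertain.

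Klf5 (ENSMUSG00000005148, chromosome 14) had a log2 difference of 0.05, with 67.6% of genes below it. Of 16 basal and proliferation genes 10 were lower and 6 higher, where 55.6% of all genes were lower and 44.4% higher. The median was -0.03. None passed the smaller limit, where 5.9% of all genes did on the lower side and 4.59% on the higher. Itga3, Itga6 and Egfr were the lowest, at -0.23, -0.22 and -0.22, and Lama3, a laminin chain, the highest at 0.23. Krt14 was at 8083 FPKM in knockout epidermis, against 7421 FPKM in wild-type epidermis. Fbxw7, a ubiquitin ligase subunit that targets Klf5, was at 11.9 FPKM in knockout epidermis, against 10.04 FPKM in wild-type epidermis. Wwp1, a further ligase of Klf5, was at 9.90 FPKM in knockout epidermis, against 10.6 FPKM in wild-type epidermis. The 6 turnover genes were divided evenly, 3 lower and 3 higher. Fbxo32, among the 3 lower, reached 1 FPKM in the wild-type library alone, so the filter could admit it only as lower.

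Klf6 (chromosome 13) was at 81.7 FPKM in knockout epidermis, against 88.9 FPKM in wild-type epidermis, a log2 difference of -0.12. Klf10 (chromosome 15) was at 57.7 FPKM in knockout epidermis, against 50.9 FPKM in wild-type epidermis, and at 0.18 had the highest difference of the family members followed here; 87.7% of genes lay below it. Klf2, Klf4, Klf6 and Klf10, the members known for rapid induction, were thus on both sides of 0. Of the 21 genes of the immediate early list 17 were lower (14 after upper quartile scaling), where 55.6% of all genes were. Their median was -0.12, equal to that of the 9 Klf members to this precision. Of the 21, 6 were at least 20% lower, where 5.9% of all genes were. That count was 5 after upper quartile scaling or centring on the median gene. At least 25% higher were 0 of the 21, where 4.59% of all genes were. Fosl1, a Fos-family subunit of AP-1, was at 99.2 FPKM in knockout epidermis, against 145.3 FPKM in wild-type epidermis, and Atf3 at 272.8 FPKM in knockout epidermis, against 380.4 FPKM in wild-type epidermis. Junb and Zfp36, the most abundant, differed little, at -0.02 and -0.04. Genes of this kind also respond to handling of tissue, and its part in the Klf2 and Klf4 values was not tested. The TGF-beta pathway can induce Klf10, and 8 of its 14 listed genes were lower, around a median of -0.01. Tgfb1 was at 14.7 FPKM in knockout epidermis, against 18.2 FPKM in wild-type epidermis, and Tgif1, a repressor of the pathway, at 41.5 FPKM in knockout epidermis, against 35.7 FPKM in wild-type epidermis.

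Klf9 (chromosome 19) was at 11.9 FPKM in knockout epidermis, against 12.3 FPKM in wild-type epidermis, a log2 difference of -0.05. Its clock and glucocorticoid companions were divided, with 9 of 19 lower and 10 higher, where 55.6% of all genes were lower and 44.4% higher. Their median was 0.0008. Per2, Dbp and Zbtb16 were the 3 at least 25% higher, where 4.59% of all genes were. Per2, a repressor of the clock, was at 3.00 FPKM in knockout epidermis, against 1.62 FPKM in wild-type epidermis. Dbp, a transcription factor driven by the clock, was at 23.9 FPKM in knockout epidermis, against 17.3 FPKM in wild-type epidermis. Cry1, another clock repressor, was at 12.8 FPKM in knockout epidermis, against 15.9 FPKM in wild-type epidermis. Arntl and Clock, whose proteins form the clock's activator, had 13.5 and 14.4 FPKM in knockout epidermis, against 16.7 and 17.2 FPKM in wild-type epidermis. The glucocorticoid target Tsc22d3 was at 51.0 FPKM in knockout epidermis, against 43.6 FPKM in wild-type epidermis. The labels do not state the hour at which the ears were taken.

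Klf3 (chromosome 5) had a log2 difference of -0.11. Klf13 (chromosome 7) was at 20.6 FPKM in knockout epidermis, against 24.2 FPKM in wild-type epidermis, a difference of -0.22, with 12.5% of genes below it. Klf7 (chromosome 1), the least abundant member, was at 2.34 FPKM in knockout epidermis, against 2.85 FPKM in wild-type epidermis, a difference of -0.21. Of 12 corepressor and coactivator genes used by these factors 11 were lower (9 after upper quartile scaling), where 55.6% of all genes were, with a median of -0.09. At least 20% lower was 1, Ctbp2, where 5.9% of all genes were. It no longer was after centring on the median gene (-0.30), after upper quartile scaling (-0.29) or with a pseudocount of 5 FPKM (-0.22). Ctbp2, a partner of Klf3, was at 6.44 FPKM in knockout epidermis, against 8.31 FPKM in wild-type epidermis, whereas the more abundant Ctbp1 was at 41.5 FPKM in knockout epidermis, against 44.2 FPKM in wild-type epidermis. Sin3b was at 72.9 FPKM in knockout epidermis, against 81.1 FPKM in wild-type epidermis. Klf3, Klf7, Klf9 and Klf13 overlap other annotated genes, and the labels do not state how the counting used strand. Where the table named an overlapping gene its level was low: Gm20033, antisense to Klf3, was at 0.30 FPKM in knockout epidermis, against 0.45 FPKM in wild-type epidermis, and E030018B13Rik, antisense to Klf13, was listed at 0 in both.

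The other Klf and the Sp genes, which share the zinc-finger domain, had small differences. Of these 17, 8 passed the filter, with 3 lower and 5 higher, where 55.6% of all genes were lower and 44.4% higher. They had a range from -0.09 to 0.24, a median of 0.05 and none past the smaller limit. Klf16 was at 32.9 FPKM in knockout epidermis, against 33.9 FPKM in wild-type epidermis, and Klf11 at 10.4 FPKM in both. Sp6, a factor of skin appendage and tooth development, was at 33.8 FPKM in knockout epidermis, against 30.003 FPKM in wild-type epidermis, and Sp3 at 30.5 FPKM in knockout epidermis, against 29.2 FPKM in wild-type epidermis. Klf8, a relative of Klf3, had the largest difference of this group at 0.24. The row of Sp1, counted among the 5 higher, is merged with its neighbour Espl1 and is no measure of Sp1 alone. The RefSeq rows of Klf1, Klf14, Klf15 and Klf17 were under 1 FPKM in both libraries. A second row that the authors' deposited table names Klf1, an assembled transcript without a RefSeq match, was at 0.40 FPKM in knockout epidermis, against 1.12 FPKM in wild-type epidermis, and was not counted. The 9 members held 94.4% of the summed FPKM of all Klf genes in the knockout library and 95.1% in the wild-type library.

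**Figure D4:**
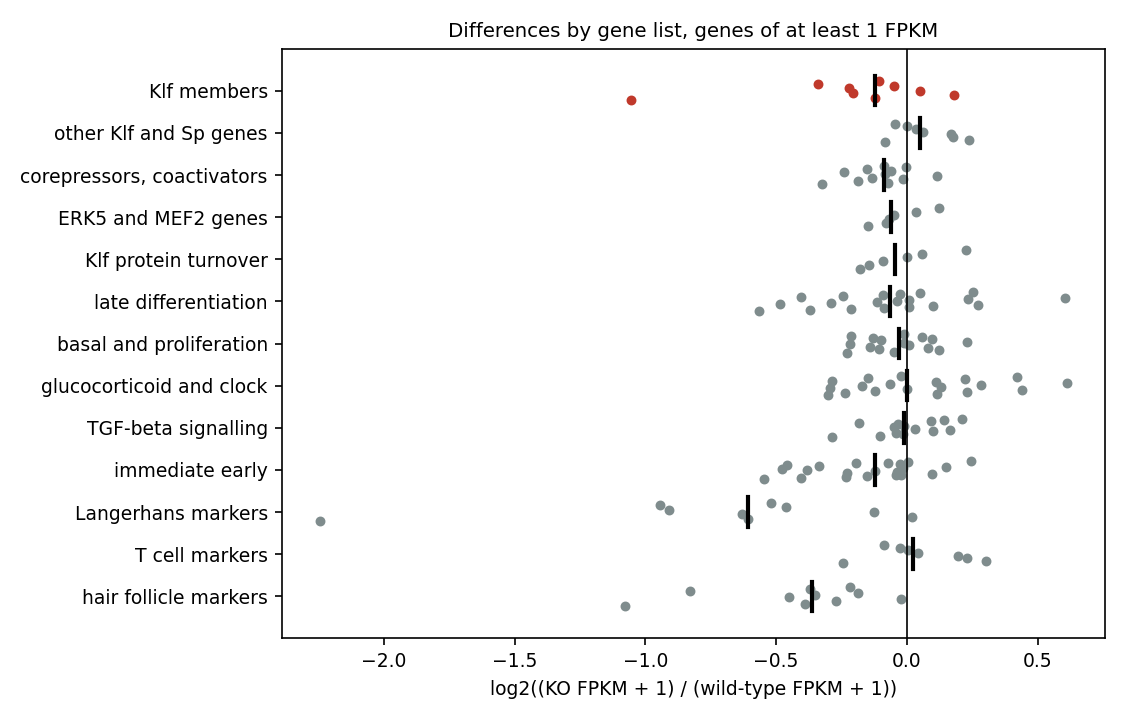
Log2 difference, K14 Il9ra knockout minus wild type, of every gene with at least 1 FPKM in the Klf members (top row) and in 12 lists of related genes and cell markers; dots are genes and black bars list medians. The Klf members have a median of -0.12 with Klf2 alone at -1.06, and the lists set furthest to the left are the Langerhans markers, at -0.61, and the hair follicle markers, at -0.36.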

How the data were processed

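Per the labels' protocols, epidermis was separated with dispase II and libraries were prepared from mRNA with 3 µg of total RNA as input. Processing ran through TopHat2 2.0.13 and Cufflinks 2.2.1 on mm10, per the submitters' processing notes. The authors deposited FPKM per locus, a log2 fold change, a test score, a p-value and a q-value; the authors' p-value and q-value compare 2 libraries and were copied, not recomputed. Rows with a gene name and a RefSeq transcript were kept and rows of the same name summed. Rows of 7 of the 9 members also contain transcripts assembled from the reads. A difference is the log2 of (knockout FPKM + 1) over (wild-type FPKM + 1), which understates the difference of low genes, over genes of at least 1 FPKM in either library. Counts were not used here, so depth was estimated from the lowest step of FPKM times length in single-transcript genes of 3 to 12 kb, where the next step lay at 2.00 times the first in the knockout library and 2.03 times in the wild-type library; no counting interval is given. The members and gene lists were chosen with earlier results of these data known. Named genes are the 9 members, and the 3 genes nearest to Klf2 and to Klf4. From each list they were taken among up to 4 genes with the largest difference and the 3 most abundant. Not every gene that met this rule is named, Krt71, Mitf and H2-Ab1 being examples. Other genes named (such as Sprr2a3, Ctbp1, Klf11, Arntl, Clock, Tsc22d3, Krt35 and the markers listed at 0) were chosen after their values were seen. The difference step was tested on simulated data. Positions are those of GENCODE M21 on GRCm38; promoters are RefSeq's, 1 per gene. Python 3.11.15, numpy 2.4.6, pandas 2.3.3 and matplotlib 3.10.9 were used.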

Additional observations from a re-analysis of the deposited data

How the results depend on the processing

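Upper quartile scaling and centring on the median gene, the 2 of the 7 alternatives that could turn a sign, turned that of no member. The log2 difference of Klf2 ran from -1.10 to -0.89; with a pseudocount of 5 FPKM it was -0.89, which left 0 members at least 2-fold lower. With the same pseudocount Klf7 was at -0.10. With the libraries scaled to the same upper quartile, or centred on the median gene, 1 member was at least 20% lower, since Klf4 was then at -0.307 and -0.318, short of the limit of 0.322. With a filter of 5 FPKM Klf7 left the comparison. The shares of all genes moved as well: a pseudocount of 0.1 FPKM put 0.87% at least 2-fold lower, and one of 5 FPKM put 0.13% there and 2.60% at least 20% lower. Among the marker lists the hair follicle median ran between -0.56 (0.1 FPKM) and -0.15 (5 FPKM). Of the clock and glucocorticoid genes, 1 was at least 25% higher with a pseudocount or filter of 5 FPKM, and of the other Klf and Sp genes 1 was with a pseudocount of 0.1 FPKM. No paired analysis was possible because each genotype had 1 library. Depth limits genes near 0, such as Il9r at 0.011 FPKM in the knockout library.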
